A study of Mus musculus with 2 samples.

Results

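Fabp7, Slc1a3, Slc1a2, Gja1, Aldoc, Apoe, Aqp4, Hopx, Ptprz1 and Glul mark radial glia and the astrocytes that descend from them, and they were measured here as 10 of the 43346 Ensembl genes in the tables. They were chosen by name and matched by gene ID, and all 10 were found, with 49 listed transcripts. The RNA was total RNA from whole midbrain of B6NCrl mouse embryos at embryonic day 15.5. Replicate 1 pooled 78 embryos and replicate 2 pooled 62, males and females together, and no genetic change or treatment is named for either. There was 1 tissue and 1 age, so the values below are levels in this tissue and differences between the 2 pools. In bulk tissue, fewer cells of a type and less RNA per cell cannot be told apart.

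Radial glia are the neural stem cells of the embryonic brain: their cell bodies lie by the ventricle, their long fibres reach the pial surface and guide migrating neurons, and they give rise first to neurons and later to glia. Astrocytes take up released glutamate through the transporters encoded by Slc1a3 (GLAST) and Slc1a2 (GLT-1) and turn it into glutamine with glutamine synthetase, the product of Glul. They also supply lipid particles carrying apolipoprotein E, couple to each other through connexin 43 (Gja1) and cover blood vessels with endfeet rich in the water channel aquaporin 4 (Aqp4). Many of the genes used as astrocyte markers are already active in radial glia, and Gfap and Aqp4 are known as markers of more mature astrocytes.

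The libraries held 38966386 and 40419493 expected counts, which are read counts estimated by a model that shares out ambiguous reads. Levels are in TPM, a gene's length-scaled share of all transcripts, given as the mean ± SD of the 2 libraries (n = 2). A gene was called expressed at 1 TPM or more in both libraries. By that rule 9 of the 10 genes were expressed, against 35.4% of all Ensembl genes, and Hopx was not. At 1 FPKM, a unit that scales counts by length and library size, 8 were expressed, since Aqp4 had 1.62 and 0.86 FPKM. Together the 10 genes took 0.191% of all TPM in replicate 1 and 0.171% in replicate 2. At the gene level their assignment of reads was nearly free of ambiguity. The deposited posterior SD of a gene's count did not exceed 1.74 reads for any of the 10 genes. It was larger for some single transcripts, as given below for Aldoc-206.

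Fabp7, which encodes the brain fatty acid binding protein of radial glia, was the highest of the group. It measured 989 TPM in replicate 1 and 963 TPM in replicate 2 (976 ± 17.9, from 16312 and 16410 counts), which placed it at rank 66 of 21474 protein-coding genes. The gene lies on chromosome 10 at chr10:57784881-57788450 (mm10, plus strand). Slc1a3, the glutamate transporter gene that radial glia also use as a marker, stood at 87.0 and 81.7 TPM (84.3 ± 3.82; chr15:8634124-8710764, minus strand). Ptprz1, a receptor tyrosine phosphatase carried by radial glia and by precursors of oligodendrocytes, measured 36.4 and 38.3 TPM (37.3 ± 1.36; chr6:22875502-23052916, plus strand). By counts these genes differed between the pools by 1.03-fold, 1.09-fold and 1.05-fold. Hopx, a homeodomain-only protein used as a marker of outer radial glia in other brain regions, had only 20 and 15 counts, at 0.81 and 0.60 TPM (0.705 ± 0.148; chr5:77086988-77115121, minus strand). Both Hopx values lay above the detection floor for this gene, set at 3 counts (0.122 and 0.120 TPM).

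The astrocyte genes spanned the range between Fabp7 and Hopx. Apoe, for the main lipid carrier of brain, measured 417 TPM in replicate 1 and 310.15 TPM in replicate 2 (363 ± 75.4; chr7:19696109-19699188, minus strand). Glul stood at 153 and 139.7 TPM (147 ± 9.71; chr1:153899944-153909723, plus strand). Gja1 stood at 105 and 89.1 TPM (96.9 ± 10.97; chr10:56377330-56402513, plus strand). Aldoc, the aldolase of glycolysis that marks astrocytes, had 107 TPM in replicate 1 but 69.8 TPM in replicate 2 (88.6 ± 26.4; chr11:78322968-78327781, plus strand). Scaled by its longest listed transcript, a setting chosen after seeing the data, its level was 52.5 ± 14.5 TPM. Apoe and Aldoc were thus the abundant members with the widest gap between the pools, both higher in replicate 1. Slc1a2 measured 14.01 and 15.3 TPM (14.7 ± 0.940; chr2:102658659-102790784, plus strand). Aqp4 was the lowest expressed member, at 2.70 and 1.45 TPM (2.08 ± 0.884; chr18:15389496-15410982, minus strand).

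**Figure D1:**
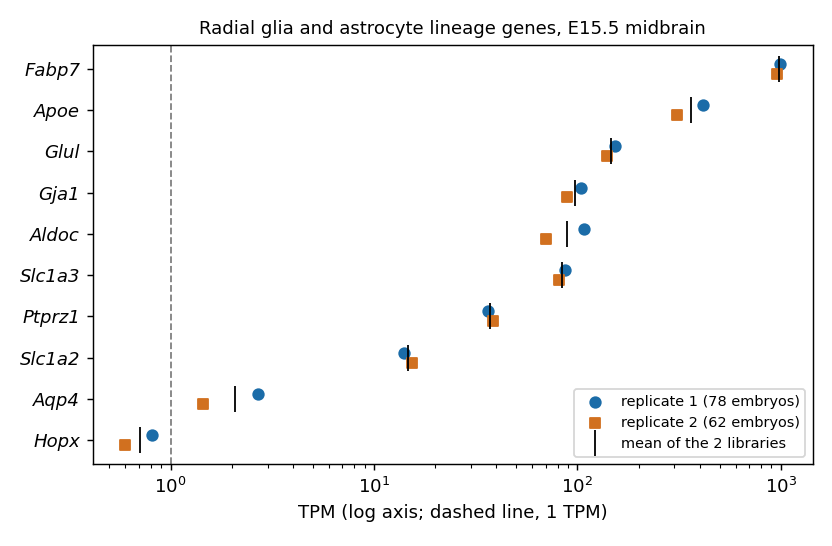
TPM (log axis) of each gene in replicate 1 (circles) and replicate 2 (squares), with the mean as a vertical tick and 1 TPM as a dashed line. Fabp7 lies highest at 989 and 963 TPM and Hopx lowest at 0.81 and 0.60 TPM. The widest gaps between libraries are those of Aqp4, Aldoc, Hopx and Apoe.

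The order of mean TPM was therefore Fabp7, Apoe, Glul, Gja1, Aldoc, Slc1a3, Ptprz1, Slc1a2, Aqp4 and Hopx. Of the neighbours in that order, only Gja1 with Aldoc and Aldoc with Slc1a3 overlapped between libraries; for all other neighbours, both libraries of the higher gene exceeded both of the lower. The order was the same by FPKM and by posterior mean TPM. It rests on the transcript lengths used for scaling: with the length of each gene's longest listed transcript instead, a setting chosen after seeing the data, Glul moved from the third to the sixth place, at 47.9 ± 3.12 TPM.

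Within the glutamate transporter family Slc1a3 was the highest gene and Slc1a2 was low. The TPM of Slc1a3 was 6.21 times that of Slc1a2 in replicate 1 and 5.32 times in replicate 2 (5.77 ± 0.630). Slc1a2 also lay below Slc1a1, the transporter gene known from neurons (29.8 ± 0.714 TPM), at a ratio of 0.492 ± 0.0198. Slc1a4 (49.8 ± 1.29 TPM) and Slc1a5 (11.2 ± 1.21 TPM), which carry neutral amino acids, and Slc1a6 (13.4 ± 0.672 TPM), a glutamate transporter known from Purkinje cells, were expressed too. Glutamine made by Glul leaves glia and enters neurons through the Slc38 family. All 9 genes listed for glutamate and glutamine handling besides the members were expressed. The highest were the glutamine transporter genes Slc38a2 (96.1 ± 0.771 TPM) and Slc38a1 (56.1 ± 1.27 TPM) and the glutamate dehydrogenase gene Glud1 (81.2 ± 4.72 TPM). Slc38a3, the system N transporter gene of astrocytes, measured 33.2 and 25.9 TPM.

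Fabp7 shared its family with a gene almost as abundant. Fabp5, for the fatty acid binding protein named after epidermis that is also made in embryonic brain, measured 745 and 720.2 TPM, so that Fabp7 was 1.33 ± 0.00730 times Fabp5. Fabp3 measured 177 and 187 TPM, and the TPM of Fabp7 was 5.38 ± 0.309 times as high. The other genes of the family were under 1 TPM in both libraries: Fabp1 of liver, Fabp2 of intestine, Fabp4 of fat cells and Fabp6, which was listed at 0. In epidermis, which also makes Fabp5, keratins are abundant, and 3 keratin genes were higher in replicate 2 (Krt5 with 4 and 238 counts, Krt14 with 5 and 176, Krt15 with 13 and 132). Of the other listed epidermis genes, Trp63 had 15 and 12 counts and Dsg3, with 2 and 6, was not tested, and the 5 epidermis markers summed to 0.89 and 13.4 TPM. Their part in the Fabp5 level was not tested.

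For Aldoc and Gja1 the relation to the family was opposite. The TPM of Aldoa, the aldolase of most tissues, was 4.36 times that of Aldoc in replicate 1 and 6.19 times in replicate 2 (467 and 432 TPM), ratios that rest on the deposited length of Aldoc. Gja1 was the highest of the listed connexin genes, and 6 of the other 13 were expressed. Next were Gjc1 (30.2 ± 0.170 TPM), Gjb6 of astrocytes (21.6 ± 1.80 TPM) and Gja4 of vessels (18.0 ± 1.33 TPM), and the TPM of Gja1 was 3.20 ± 0.345 times that of Gjc1 and 4.49 ± 0.134 times that of Gjb6. The oligodendrocyte connexin gene Gjc3 (0.09 and 0.30 TPM) was not expressed by the 1 TPM rule.

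**Figure D2:**
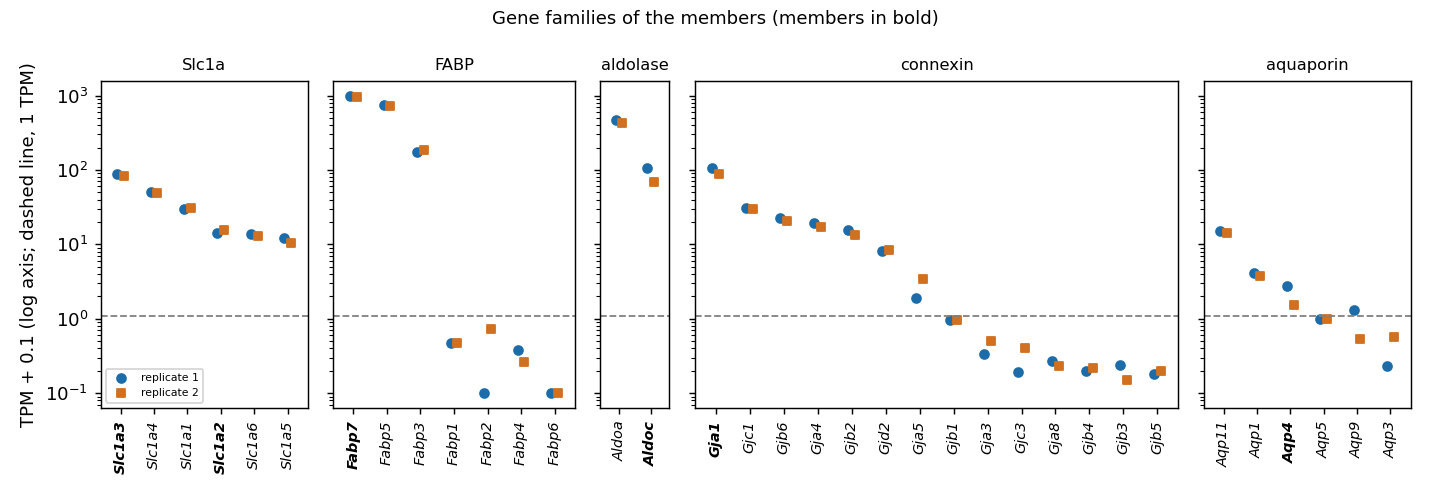
TPM + 0.1 (log axis) of the members (bold) and the other listed genes of 5 families in replicate 1 (circles) and replicate 2 (squares), with 1 TPM dashed. Slc1a3, Fabp7 and Gja1 lead their families, while Aldoc lies below Aldoa, Aqp4 below Aqp11 and Aqp1, and Slc1a2 below Slc1a4 and Slc1a1.

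Aqp4 lay among low relatives. Aqp11, an intracellular channel, was the highest aquaporin gene at 14.7 ± 0.700 TPM, and Aqp1, known from choroid plexus, had 3.86 ± 0.269 TPM. Of the 12 genes listed as other aquaporins and the complex that anchors Aqp4 at endfeet, 9 were expressed; Aqp3, Aqp5 and Aqp9 were not. The highest were the dystroglycan gene Dag1 (59.0 ± 3.90 TPM), the dystrophin gene Dmd (22.4 ± 2.11 TPM) and the dystrobrevin gene Dtna (16.7 ± 0.396 TPM), which also act in other cell types. The potassium channel gene Kcnj10, which sits beside Aqp4 in mature endfeet, was low at 1.45 and 1.44 TPM.

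Receptors for Apoe and the partners of Ptprz1 were expressed throughout. All 9 genes listed for apolipoprotein receptors, lipid transporters and other apolipoproteins passed 1 TPM. The highest were the receptor gene Lrp1 (95.3 ± 1.58 TPM), Apod (81.1 ± 7.53 TPM) and the clusterin gene Clu (80.0 ± 4.43 TPM), and the TPM of Apoe was 5.01 times that of Clu in replicate 1 and 4.03 times in replicate 2. All 9 ligands, partners and relatives of Ptprz1 passed as well. Its ligand pleiotrophin, Ptn, measured 276 and 234 TPM, which was 6.86 ± 1.05 times Ptprz1. The proteoglycan gene Ncan had 155 ± 4.88 TPM and the second growth factor gene, Mdk, had 119 ± 15.4 TPM. The contactin gene Cntn1, for a neuronal binding partner, stood at 1.15 ± 0.0458 times Ptprz1.

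Most other markers of radial glia and astrocytes were expressed, and Gfap was not. All 17 other radial glia genes were expressed, the highest being Dbi (695 ± 65.4 TPM), Vim for vimentin (335 ± 13.0 TPM) and Id4 (223 ± 13.9 TPM). Of 20 other astrocyte genes 18 were expressed, led by Cst3 (441 ± 31.6 TPM), Mt3 (139.6 ± 19.0 TPM) and Ndrg2 (134 ± 16.6 TPM). The exceptions were Gfap, the intermediate filament gene of mature astrocytes, at 0.12 and 0.20 TPM from 7 and 12 counts, and Agt for angiotensinogen, at 0.79 and 0.51 TPM. Of 5 genes listed beside Hopx for outer radial glia, Tnc (47.3 ± 6.34 TPM), Il6st (17.1 ± 0.820 TPM) and Lifr (6.14 ± 0.00707 TPM) were expressed, all of which have other sources. Fam107a (0.55 and 0.56 TPM) and Moxd1 (0.99 and 1.48 TPM) were not.

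Transcript tables gave the share of each gene's abundance that every listed transcript took. Fabp7-201 took 98.3% of Fabp7 in both libraries. Gja1, Ptprz1 and Aqp4 each had 1 listed transcript. The spans of Gja1 and Aqp4 printed above come from a later annotation, GENCODE M21. They reach beyond the transcripts that were counted, Gja1-201 (to base 56390415) and Aqp4-201 (to base 15403758). Apoe-209 took 82.2% and 82.0% of Apoe, and Apoe-206, which starts upstream of it, took 15.0% and 11.5%. Slc1a3-201 took 88.1% and 85.6% of Slc1a3, and transcripts listed as noncoding, most of them with retained introns, took 10.98% and 13.5%. Slc1a2-202, which starts at base 102658659 of chromosome 2, took 82.6% and 82.4% of Slc1a2, with 6.88% and 9.34% for Slc1a2-204.

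Aldoc, Hopx and Glul were divided further. Aldoc-202, from a start inside the gene, took 78.6% in replicate 1 and 85.7% in replicate 2. Aldoc-201, from the upstream start, took 8.81% and 8.0%, and the processed transcript Aldoc-206 took 12.3% and 6.10%. The shares of Aldoc-206 are uncertain: its counts were 186 and 62.4, with posterior SDs of 38.6 and 32.15 reads. Hopx-202 took 75.01% and 87.5% and Hopx-201 the rest, from at most 20 counts in all. Glul-202, a listed transcript of 681 nt, took 47.2% and 47.4%, Glul-203 of 379 nt took 32.5% in both, and the full-length Glul-201 of 2792 nt took 18.9% in both. By expected counts the order in Glul turned: Glul-201 held 57.8% of the counts, Glul-202 held 31.3% and Glul-203 held 10.3%. By counts Aldoc-201 (14.1%) likewise came before Aldoc-206 (3.50%), and Slc1a2-204 held 1.67% of Slc1a2. Since short transcripts raise TPM per read, the level of Glul depends on how reads were divided among these transcripts.

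**Figure D3:**
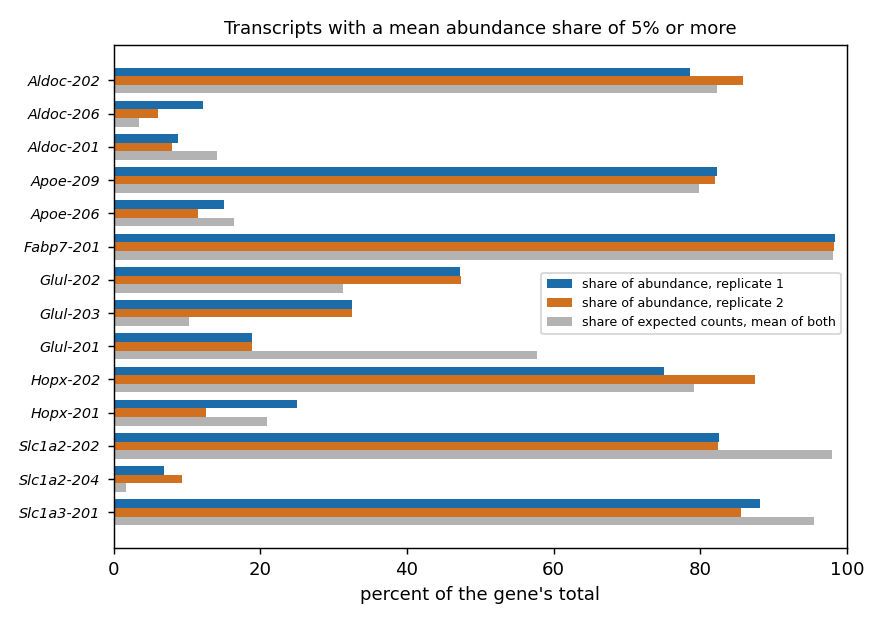
Percent of each gene's total taken by transcripts with a mean abundance share of 5% or more, by abundance in replicate 1 and replicate 2 and by expected counts (mean of both libraries). Single-transcript genes are left out; Glul-201 takes 18.9% by abundance and 57.8% by counts.

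Exons of 3 members overlap genes of the opposite strand, and whether strand was used in counting is not given in the sources used here. Glul shares 116 nt with Teddm2 (1.40 and 1.13 TPM), Slc1a2 shares 189 nt with Gm13872 (1.46 and 1.36 TPM) and Hopx shares 412 nt with Hopxos (0.19 and 0.24 TPM). Without strand, reads from the shared bases of such a pair cannot be told apart. Glul also shares 93 nt with Mir8114 (2.15 and 0 TPM) on its own strand, where strand would not separate the reads.

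Promoter windows, from 250 bases upstream of a RefSeq start site to 50 bases downstream (GRCm38.p6), were matched for 9 of the 10 genes, with 13 windows in all because Apoe, Aldoc and Hopx have several starts. They were searched on both strands for letters bound by factors known in radial glia and astrocytes. TGGGAA of RBPJ, the DNA-binding partner of Notch, occurred in windows of Aldoc, Apoe and Fabp7 (4 of 13 windows, against 25.6% of 32851 windows of all genes). TTGGCA of NFI factors occurred in windows of Aldoc and Apoe (2 of 13, against 14.1%). ACAAAG or ACAATG of SOX factors occurred in a window of Apoe (1 of 13, against 28.6%). TTCNNNGAA of STAT factors occurred in windows of Aldoc and Slc1a3 (2 of 13, against 8.30%). The windows of Glul, Gja1, Ptprz1, Slc1a2 and Hopx held none of these letters. The Slc1a2 window belongs to a start at base 102706438, whose transcript Slc1a2-201 was listed at 0, and does not cover the start of Slc1a2-202. The RBPJ and NFI letters of Apoe lie in the window of a start inside the gene, at base 19698398. No Apoe window covers base 19699008, where Apoe-209, the leading transcript, starts.

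The stretches with a match that lie outside annotated exons are printed 5′ to 3′ on the gene's strand, with matched letters in capitals and no overlap between matches, to show what lies before the starts of the genes described above. They are Fabp7 at chr10:57784673-57784709 (plus strand, the RBPJ letters on the opposite strand, 249 bases upstream of the start of Fabp7-202, while Fabp7-201 starts at base 57784881), Aldoc at chr11:78322897-78322962 (plus strand, NFI then RBPJ, before the upstream start of Aldoc-201), Apoe at chr7:19699297-19699362 and chr7:19699207-19699272 (minus strand, SOX, before the start of Apoe-206) and Slc1a3 at chr15:8710865-8710933 (minus strand, STAT, 96 bases upstream).
Fabp7: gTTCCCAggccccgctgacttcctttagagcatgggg
Aldoc: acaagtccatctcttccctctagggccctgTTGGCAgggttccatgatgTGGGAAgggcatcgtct
Apoe: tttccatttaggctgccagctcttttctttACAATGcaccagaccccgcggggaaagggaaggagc
Apoe: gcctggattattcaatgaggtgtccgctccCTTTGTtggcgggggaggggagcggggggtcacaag
Slc1a3: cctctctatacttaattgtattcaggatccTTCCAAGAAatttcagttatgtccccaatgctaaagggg
The Aldoc stretch precedes the start that took the smaller share of Aldoc (8.81% and 8.0%), and the Apoe stretches precede the start of Apoe-206. The matches are descriptions of letters, and no binding was measured.

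The 2 pools were then compared gene by gene with a two-sided exact binomial test on counts. These p-values compare 2 libraries and cover counting error only. None of the 10 genes passed an adjusted p under 0.05 together with a 2-fold difference, where 1.63% of 18269 tested genes did. Without the fold threshold 6 genes were higher in replicate 1 (Aldoc, Apoe, Aqp4, Gja1, Glul and Slc1a3), against 10.1% of all tested genes, and 2 were higher in replicate 2 (Ptprz1 and Slc1a2), against 9.18%. Fabp7 (adjusted p = 0.0756, exact binomial test) and Hopx (0.626) did not pass. The shares of 10.1% and 9.18% cover tested genes of all counts, from a mean of 10 up, and at high counts the test passes small ratios. Ranks among genes of like counts are given below. The median log2 ratio of the 10 genes, replicate 1 over replicate 2, was 0.18, and that of all tested genes was 0.0026.

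The widest ratio was that of Aqp4, with 314 counts in replicate 1 and 174 in replicate 2, a 1.86-fold difference (95% counting interval 1.54 to 2.26; adjusted p = 1.12e-09, exact binomial test). Aldoc had 3937 and 2738 counts, 1.49-fold (1.41 to 1.56; adjusted p = 5.26e-55 by the same exact test). Apoe had 10171 and 7662 counts, 1.37-fold (1.33 to 1.41; adjusted p = 1.42e-94 by the same exact test). Hopx, from 20 and 15 counts, was 1.37-fold higher in replicate 1, with an interval that includes no difference (0.670 to 2.89). Gja1 followed at 1.17-fold. Glul (1.097-fold) and Slc1a3 (1.09-fold) differed by less, and Slc1a2 was 1.096-fold and Ptprz1 1.05-fold higher in replicate 2.

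With spread between libraries allowed for, by edgeR's exact test with the common dispersion of all genes and no fold threshold, a setting chosen after seeing the data, 2 genes were higher in replicate 1, against 0.837% of tested genes. They were Aqp4 (adjusted p = 0.000424) and Aldoc (adjusted p = 0.00475). No member was higher in replicate 2, against 0.46%; 1 of the 10 genes, Apoe, lay just outside the threshold (adjusted p = 0.0551, edgeR exact test). Of the 4517 genes within 2-fold of the mean count of Aldoc, 0 had a larger absolute log2 ratio. For Apoe the share was 0.0552% of 1812 genes, for Aqp4 0.981% of 3058 and for Gja1 1.81% of 2435. The share was 11.7% for Slc1a3, 14.7% for Slc1a2, 14.9% for Glul, 35.1% for Ptprz1, 48.4% for Hopx and 57.6% for Fabp7.

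**Figure D4:**
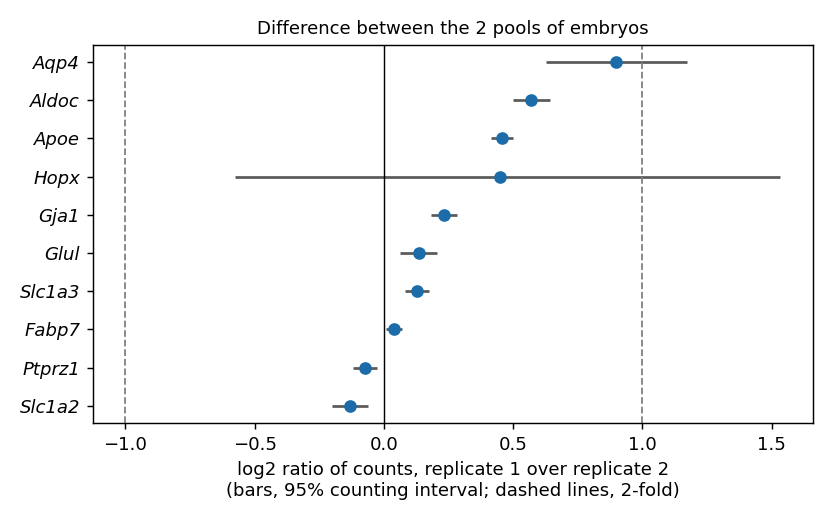
Log2 ratio of counts, replicate 1 over replicate 2, for each gene, with the 95% counting interval as a bar and 2-fold as dashed lines. Aqp4, Aldoc and Apoe lie farthest to the right, at 0.90, 0.57 and 0.46, and the Hopx interval, from 35 counts in all, crosses 0.

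Most other radial glia and astrocyte genes also had more counts in replicate 1 after scaling by library size. Of the 17 other radial glia genes 15 had a ratio above 0, with a median log2 ratio of 0.17, where 50.8% of all tested genes were higher in replicate 1. Of the 17, 11 had an adjusted p under 0.05 in the exact binomial test, all higher in replicate 1, against 10.1% of all tested genes. Pla2g7, for a secreted phospholipase, had the widest ratio there, with 821 and 482 counts (log2 ratio 0.81). The milk fat globule protein gene Mfge8 (0.43) and Hes5 (0.34), a target of Notch, came next, and Hes1, another Notch target, stood at −0.11. Of the other astrocyte genes all 19 that could be tested had a ratio above 0 (median 0.17), and 11 passed the adjusted p, against the same 50.8% and 10.1% of all tested genes. Raw counts were lower in replicate 1 for Atp1b2 (3143 and 3196), Fgfr3 (1433 and 1459) and Cd44 (180 and 181). Library scaling put their log2 ratios at 0.02 to 0.04. No gene of either list reached 2-fold with an adjusted p under 0.05. By edgeR's exact test with a common dispersion and no fold threshold, which allows for spread between libraries, Pla2g7 alone of both lists passed. That setting was chosen after seeing the data, and the exact binomial calls cover counting error only. The share of 10.1% covers tested genes of all counts, and at high counts small ratios pass, such as 1.06-fold for Nfia (4336 and 4222 counts). Genes of these lists were not ranked among genes of like counts.

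Genes of other cell types differed between the pools as well. The 8 microglia markers, cells that also make Apoe, had a median log2 ratio of 0.30 and summed to 154 and 123 TPM; the defining marker Cx3cr1 was level at 6.60 and 6.62 TPM and P2ry12 had 3.55 and 4.65 TPM. The 6 meningeal markers had a median of 0.16, the 6 endothelial markers 0.11 and the 5 mural markers 0.09. The 6 erythroid markers had 0.36, and summed to 14772 and 11524 TPM. The 6 immature neuron markers had −0.06. Liver markers, for a tissue that makes Apoe and Glul, summed to 33.3 TPM in replicate 1 and 6.63 TPM in replicate 2, and 5 of 6 passed the 2-fold rule, among them Alb with 209 and 4 counts and Afp with 329 and 9. The part of these cells in the ratios of Apoe, Aldoc, Aqp4 or the others was not tested.

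**Figure D5:**
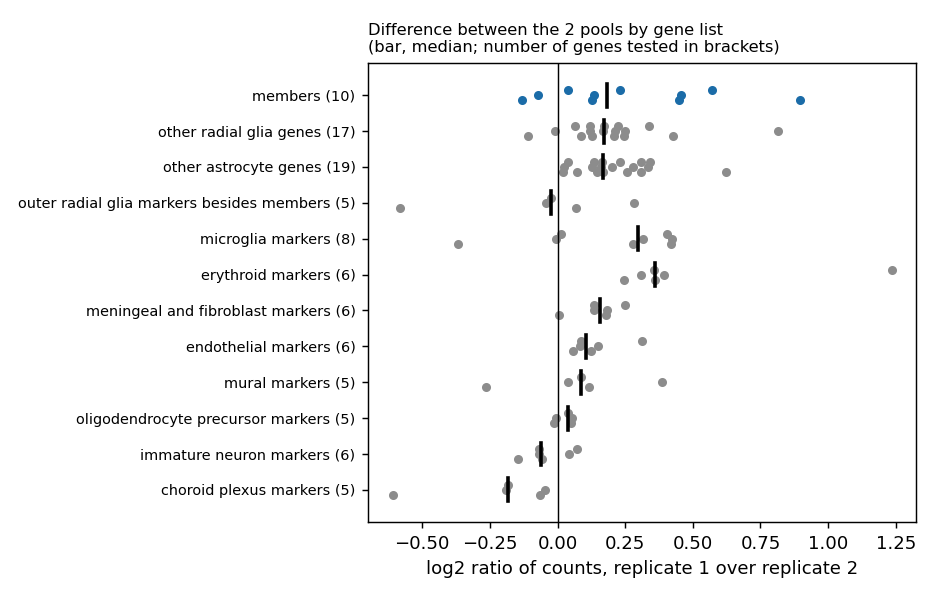
Log2 ratio of counts, replicate 1 over replicate 2, of single genes (points) by list, with the list's median as a bar and the number of genes tested in brackets. The members (blue) have a median of 0.18, the other radial glia and astrocyte genes 0.17 each and the immature neuron markers −0.06; liver and epidermis markers, whose ratios are far wider, are left out.

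Among relatives of the members, 3 low genes passed the 2-fold rule between the pools, where 1.63% of all tested genes did. The lists they came from had 9 tested connexin genes and 12 tested genes of other aquaporins and the endfoot complex. Aqp9 (34 and 13 counts), known from liver, was higher in replicate 1. Gjc3 (7 and 25 counts) and Aqp3 (5 and 19 counts), the latter known from epidermis, were higher in replicate 2. Their adjusted p-values in the exact binomial test lay between 0.014 and 0.038, and none passed an adjusted p under 0.05 in edgeR's exact test with a common dispersion. Liver markers were higher in replicate 1 and keratin genes in replicate 2, as given above, and the source of these reads was not tested.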

How the data were processed

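Total RNA longer than 200 nt from 2 pools of midbrain was sequenced with 10 ng of starting RNA and ERCC spike-ins, per the labels' protocols. The authors deposited, per the file headers, expected counts, TPM, FPKM, posterior means and a posterior SD of each count (used as a score), the bounds of a TPM credibility interval (used as a signal), and, per transcript, the percent of its gene's abundance. The build was mm10 with GENCODE M4, per the deposited notes. For aligner, counting tool and strand setting, nothing is stated: not given in the sources used here. Nothing in the labels ties the pools to separate litters or days, so no p-value reaches beyond these libraries: those of the exact binomial test cover counting error, and those of edgeR's test also a spread between the libraries that may be technical. Copies of 1 molecule made by PCR cannot be told apart, so intervals and floors cover counting error only.

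Symbols were matched by gene ID without version (42462 of 43346 genes), taking the ID with most reads where a symbol had several. Transcript names and coordinates came from GENCODE M21 on the same build, and promoter sequences from RefSeq (GRCm38.p6). Expected counts were rounded to whole numbers. Library sizes came from TMM (edgeR 4.0.16, R 4.3.3) over Ensembl genes, so spike-ins (2.30% and 2.42% of counts) entered no test. Benjamini-Hochberg adjustment ran over every gene averaging at least 10 counts, and log2 ratios used 0.5 added to each count. In edgeR's exact test the common dispersion was estimated from the same 2 libraries with an intercept only (coefficient of variation 0.0651). Alternatives used DESeq2 1.42.0 size factors, total counts, spike-in sums, posterior means, other thresholds and other length scales. Remaining steps ran in Python 3.11.15 with scipy 1.17.1, pandas 2.3.3 and numpy 2.4.6, and plots in matplotlib 3.10.9.

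The members and the gene lists were chosen with earlier results of these data known, and no list is independent support. Named genes are all members and, per list, the 3 highest by TPM, genes under 1 TPM where at most 5, and genes that passed the pool test; further genes named beside a member were picked for their known role or after their values were seen. Of each member's transcripts, those with a mean share of 5% or more are named. With 2 libraries, likeness of patterns between genes was not ranked. Some genes of these families are not reported here.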

Additional observations from a re-analysis of the deposited data

How the results depend on the processing

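Of the 10 genes, 0 passed the pool test at 2-fold; 1 (Aqp4) passed at 1.5-fold and 8 with no fold threshold, and 2 passed edgeR's exact test with a common dispersion and no fold threshold, the last chosen after seeing the data. Of the 10 genes, 9 were expressed at 1 TPM, 10 at 0.1 TPM (Hopx included), 8 at 10 TPM and 8 at 1 FPKM. Over all genes 298 passed the pool test; the count was 526 at 1.5-fold, 3524 with no fold threshold and 158 with edgeR's exact test at 2-fold. With spike-in sums as library sizes every log2 ratio shifted by 0.085, the ratio of Ptprz1 turned from −0.07 to 0.011, and the median of the 10 genes became 0.27; total counts and DESeq2 size factors gave 0.19 and 0.17. Length scaling by the longest listed transcript, also chosen after seeing the data, moved Glul from 147 to 47.9 TPM and Aldoc from 88.6 to 52.5 TPM. By posterior mean TPM, Slc1a2 stood at 16.7 instead of 14.7 TPM and Fabp7 at 953 instead of 976 TPM. The deposited Slc1a2 values lay below their credibility intervals (14.2 to 18.2 and 15.4 to 19.4 TPM). Those of Fabp7 lay above theirs (950 to 979 and 927 to 955 TPM). The ratios to Slc1a2 printed above rest on the deposited TPM. The posterior mean share of Hopx-202 was 63.7% and that of Slc1a2-202 was 70.5%. No paired analysis was possible because both libraries belong to 1 group. Leaving out either library gives the other library's own value, printed above, and no test.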

Other observations

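Markers of oligodendrocyte precursors and of choroid plexus were measured in both pools. All 5 oligodendrocyte precursor markers were expressed, led by Olig1 (67.0 and 64.5 TPM), a transcription factor gene, with Olig2 (9.12 and 8.82 TPM), the growth factor receptor gene Pdgfra (8.45 and 8.48 TPM) and Sox10 (2.41 and 2.35 TPM) below it. Their median log2 ratio between the pools was 0.04. Of 5 choroid plexus markers 4 were expressed, led by the transthyretin gene Ttr (237 and 269 TPM). The median log2 ratio of the 5 was −0.18, the value of Ttr, opposite in direction to most of the radial glia and astrocyte genes. All 5 ratios lay below 0, but Ttr alone had an adjusted p under 0.05 in the exact binomial test. None passed edgeR's exact test with a common dispersion. Kl, which encodes klotho, was under 1 TPM (0.49 and 0.74).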
